A study of Saccharomyces cerevisiae with 46 samples.

Results

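Chromosomes V and IX of budding yeast were taken without 60 kb at each end, as stretches where the genome-wide maps of the study mark few of the islands in which Hop1 is most abundant. Island positions were not used here, so that description was not checked against the data. Meiotic double-strand breaks (DSBs) were described in 248 hotspots (149 on V and 99 on IX), out of 3569 hotspots on all 16 chromosomes, and in 78 windows of 10 kb (46 on V and 32 on IX), out of 1006 windows on all chromosomes without their ends. A hotspot was a stretch in which the signal of the 4 *rad50S hop1-loop2* and *rad50S* libraries, averaged and smoothed over 201 bp, exceeded 0.2 HpM per bp (HpM, hits per 1000000 hits of a library) for at least 25 bp, with gaps below 200 bp merged. The largest positions with a hit were 589694 on V and 449464 on IX, which left 469694 and 329464 bp between the ends. All coordinates refer to the SK1 assembly ASM205788v1.

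The breaks were mapped in 3 genotypes of SK1 diploids at 6 h of meiosis, with 2 replicate libraries each: *rad50S hop1-loop2 pch2*, *rad50S hop1-loop2* and *rad50S*. All 3 carry *rad50S*, which keeps break ends unprocessed so that breaks accumulate, and *rad50S* cultures serve as the control. The *hop1-loop2* allele replaces basic residues of a loop in the chromatin-binding region of Hop1 with alanine, and *pch2* is a deletion marked with kanMX. In the strain list of the study, the *rad50S* strain has ho::hisG and HIS4::LEU2 whereas the *rad50S hop1-loop2 pch2* strain has ho::LYS2, so these genotypes differ by markers besides the named alleles. The strain of *rad50S hop1-loop2* was not found in that list. HOP1 itself is a gene of chromosome IX and URA3 a gene of chromosome V in the reference annotation, and neither was located in the assembly of the files. Effects of strain markers near these genes and effects of the named alleles cannot be told apart. The genotype tag of these samples names other alleles, and the sample titles were followed.

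Spo11 makes meiotic DSBs and stays covalently bound to the 5′ ends it creates. Most breaks fall in hotspots in promoters, on chromatin loops that are tethered to a protein axis made of the cohesin Rec8, Red1 and the HORMA-domain protein Hop1. Hop1 and Red1 attract the partners that Spo11 needs, so that the amount of axis protein along a chromosome is known to set regional DSB levels. The chromatin-binding region of Hop1 contacts nucleosomes and gives Hop1 a way onto chromosomes beside Rec8. Pch2 is an AAA+ ATPase that takes Hop1 off chromosomes as homologs synapse.

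CC-seq reads the positions of Spo11-bound ends on the Watson and Crick strands. HpM scales the hits of each library to 1000000 on the nuclear chromosomes, so that a value is a share and a change in the number of breaks per cell cannot be seen in it. The *rad50S hop1-loop2 pch2* libraries held 3614810 and 1026669 hits, the *rad50S hop1-loop2* libraries 6277735 and 7985420, and the *rad50S* libraries 7730583 and 7577582. Replicate 2 of *rad50S hop1-loop2 pch2* stood apart, since 69.4% of its hits on V and 62.8% on IX lay in hotspots, against 82.2 to 90.4% in the other 5 libraries. Outside hotspots it had 33.9 HpM per kb on V and 34.9 on IX, and replicate 1 of that genotype had 15.1 and 17.6, where the *rad50S hop1-loop2* and *rad50S* libraries had 8.68 to 11.8. This signal touches values in weak windows, and those are given below from hits in hotspots as well.

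The first question was whether these chromosomes gained or lost breaks as a whole when Hop1 could not contact nucleosomes, and again without Pch2. On V, the stretch between the ends held 5.03% and 4.745% of all hits in *rad50S hop1-loop2 pch2*, 4.47% and 4.40% in *rad50S hop1-loop2*, and 3.790% and 3.787% in *rad50S*. The libraries of the 3 genotypes did not overlap. The ratio of the means was 1.29 for *rad50S hop1-loop2 pch2* against *rad50S*, 1.17 for *rad50S hop1-loop2* against *rad50S* and 1.10 for *rad50S hop1-loop2 pch2* against *rad50S hop1-loop2*. Each gave an exact permutation p = 0.333 (two-sided), the smallest that 2 libraries against 2 can give, so this design cannot pass a threshold of 0.05. Comparisons that use the same *rad50S* or *rad50S hop1-loop2* libraries are not independent of each other.

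On IX, the corresponding shares were 3.002% and 2.859% in *rad50S hop1-loop2 pch2*, 2.98% and 3.04% in *rad50S hop1-loop2*, and 2.868% and 2.850% in *rad50S*. The libraries of *rad50S hop1-loop2* lay above those of *rad50S*, with a ratio of 1.05 (exact permutation p = 0.333, two-sided), and those of *rad50S hop1-loop2 pch2* overlapped both other genotypes (ratios 1.03 against *rad50S* and 0.973 against *rad50S hop1-loop2*, exact permutation p = 0.667 for each, two-sided). Among the interiors of the other 14 chromosomes, the ratio of *rad50S hop1-loop2* to *rad50S* ranged from 0.419 on chromosome I to 1.18 on XI, and that of *rad50S hop1-loop2 pch2* to *rad50S* from 0.456 on I to 1.19 on III. V therefore had the second highest of 16 ratios in *rad50S hop1-loop2* and the highest in *rad50S hop1-loop2 pch2*, while IX was in 8th and 10th place.

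**Figure D1:**
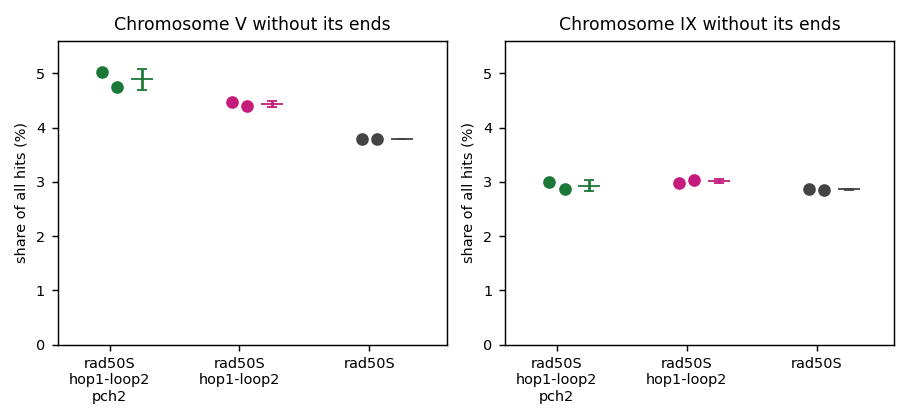
Share of all hits of a library, in percent, on chromosomes V and IX without 60 kb at each end, in the 3 genotypes. Dots are the 2 libraries of each genotype and the bars beside them the mean and SD. On V the libraries range from 4.745 to 5.028% in *rad50S hop1-loop2 pch2*, from 4.400 to 4.467% in *rad50S hop1-loop2* and from 3.787 to 3.790% in *rad50S*, and on IX all 6 libraries lie between 2.850 and 3.042%.

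Breaks were also redistributed within the chromosomes. The shares of a chromosome's hits in its 10 kb windows were compared between profiles, and the percentage of hits that would have to lie in another window to turn one profile into the other was computed. Between the mean profiles of *rad50S hop1-loop2* and *rad50S* it was 29.5% on V, and single libraries of these genotypes differed by 27.7 to 31.6%. Replicates of *rad50S hop1-loop2* differed by 4.67% and replicates of *rad50S* by 6.72%, so the difference between genotypes was several times the difference between cultures. On IX, 24.0% was displaced between the mean profiles (23.4 to 25.7% between single libraries), against 3.74% between *rad50S hop1-loop2* replicates and 5.62% between *rad50S* replicates.

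The same measure for *rad50S hop1-loop2 pch2* against *rad50S* gave 28.5% on V and 24.4% on IX, with replicates of the *pch2* mutant 6.42% and 9.56% apart. Against *rad50S hop1-loop2*, the *pch2* mutant differed by 9.47% on V and 16.1% on IX. The lowest pair of single libraries in this last comparison differed by 9.39% on V and 13.8% on IX, above the distance between replicates on the same chromosome. Between mean profiles of these 2 genotypes, the other 14 chromosomes were 11.3% (XVI) to 18.9% (XII) apart, and V lay below that range. On the other 14 chromosomes, *rad50S hop1-loop2* and *rad50S* were 26.4% (VI) to 36.5% (XIV) apart, with a median of 30.1%. V lies near that median and IX below the range, and no test of this difference between chromosomes was made.

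**Figure D2:**
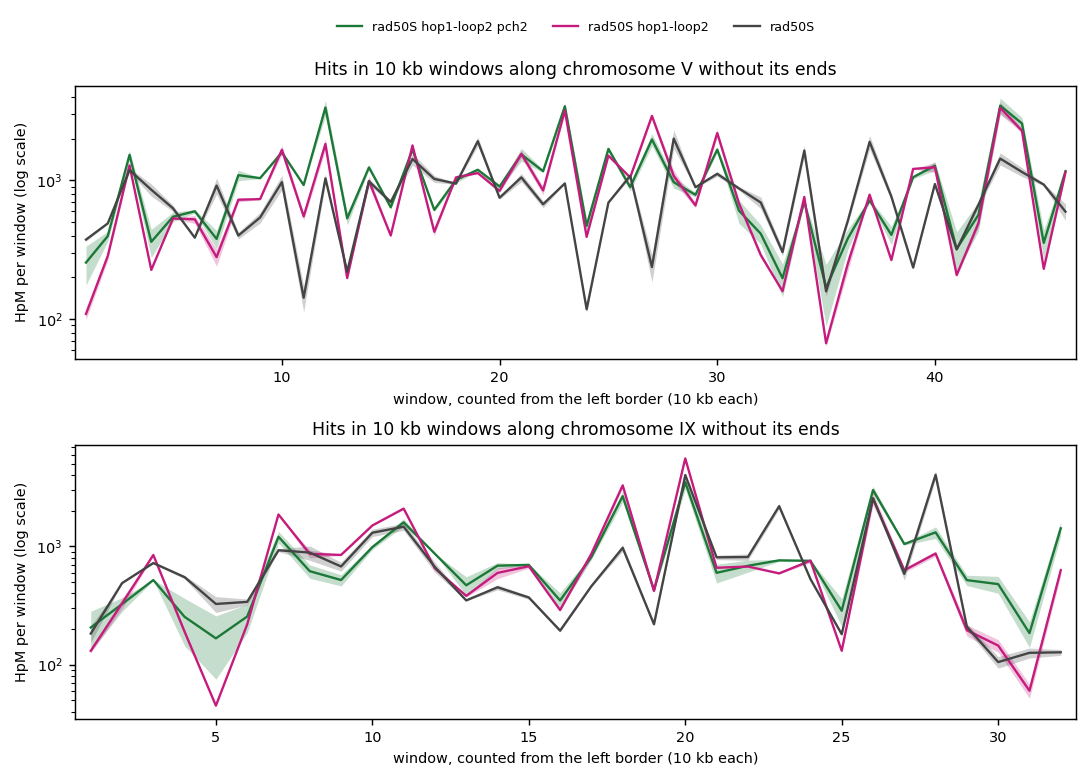
HpM in each 10 kb window (log scale) along chromosomes V (46 windows) and IX (32 windows) without their ends, counted from the left border. Lines are the mean of the 2 libraries of a genotype and shaded bands reach from the lower to the higher library. Window 27 of V and window 32 of IX are far higher in *rad50S hop1-loop2 pch2* and *rad50S hop1-loop2* than in *rad50S*, and window 28 of IX is lower.

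With limma on log2(HpM + 1) and Benjamini-Hochberg adjustment over all 1006 windows, 31 of the 78 windows fell and 32 rose in *rad50S hop1-loop2* against *rad50S* at an adjusted p below 0.05. Of all windows, 45.9% were called lower and 34.9% higher, against 39.7% and 41.0% of those of V and IX. After centring on the median window of each library, which moved the median of all windows by 0.21, 24 of the 78 were lower and 39 higher, and with DESeq2 24 and 38. The median log2 change was 0.06 over the 78 windows and -0.21 over all 1006. On V, 20 windows fell, 19 rose and 7 were not called, with log2 changes from -2.01 to 3.65. On IX, 11 fell, 13 rose and 8 were not called, from -2.82 to 2.30. The log2 change was over 1 in size in 18 windows of V (39.1%) and 8 of IX (25%), against 43.8% of all windows.

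The window from 320001 to 330000 rose more than any other of V. It had 3011 and 2811 HpM in *rad50S hop1-loop2*, against 289.8 and 184.5 HpM in *rad50S*, a ratio of 12.3 (log2 change 3.65, SE 0.18, adjusted p = 2.03e-07). It was among the weak windows of *rad50S* and among the strongest of the mutant, and its neighbour from 310001 to 320000 was not called (log2 change -0.04, SE 0.10). The next largest rise was in the window from 440001 to 450000, with 1207 and 1209.5 HpM in *rad50S hop1-loop2* and 243 and 228 HpM in *rad50S* (log2 change 2.36, SE 0.11, adjusted p = 1.53e-07), and the window after it, from 450001 to 460000, was higher by a log2 change of 0.40 (SE 0.11, adjusted p = 0.00842). The windows from 320001 and from 440001 kept their call in each of the 16 alternative settings tried for them.

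The deepest falls on V were in windows whose neighbours were not called lower. The window from 500001 to 510000 had 236 and 225 HpM in *rad50S hop1-loop2*, against 914 and 949.9 HpM in *rad50S* (log2 change -2.01, SE 0.12, adjusted p = 4.55e-07). That from 90001 to 100000 had 228 and 224 HpM in *rad50S hop1-loop2*, against 770.3 and 939.9 HpM in *rad50S* (log2 change -1.91, SE 0.14, adjusted p = 1.29e-06). The groups did not overlap in either window.

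Longer stretches of V moved in one direction. From 130001 to 180000, 5 neighbouring windows rose, and their sum was 5146 and 5841 HpM in *rad50S hop1-loop2* and 3378 and 2794 HpM in *rad50S*, a ratio of 1.78. The stretch holds 12 hotspots, of which 9 were higher and 1 lower, where 34.2% and 43.2% of all hotspots were called. Hotspot counts here and in the stretches below rest largely on the same hits as the window calls, so they are no separate support. From 260001 to 310000, 5 windows rose to 7248 and 7702 HpM in *rad50S hop1-loop2*, against 3379.6 and 3581 HpM in *rad50S*, a ratio of 2.15, with 11 of 17 hotspots higher and 5 lower.

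The longest stretch of V fell. From 360001 to 440000, 8 neighbouring windows summed to 3278 and 3242 HpM in *rad50S hop1-loop2*, against 6288 and 7378 HpM in *rad50S*, a ratio of 0.477. Of its 22 hotspots, 17 were lower and none higher in the *rad50S hop1-loop2* libraries, from largely the same hits as the windows. It ends directly at the risen window from 440001 to 450000, so that the ratio of neighbouring windows turned from a fall to a rise within 10 kb. When all 6 libraries shared 1 estimate of the spread, 5 of the 8 windows kept their call and the log2 change stayed negative in all 8.

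On IX, the largest fall was in the middle of a run of 3 lower windows. The window from 100001 to 110000 had 45.2 and 44.5 HpM in *rad50S hop1-loop2*, against 276 and 376 HpM in *rad50S* (log2 change -2.82, SE 0.17, adjusted p = 4.83e-07), and its neighbours from 90001 and from 110001 were lower by log2 changes of -1.53 and -0.63. In the window from 330001 to 340000, which was the strongest of IX in *rad50S* replicate 1, the signal was 827 and 916 HpM in *rad50S hop1-loop2* and 4371 and 3729 HpM in *rad50S* (log2 change -2.21, SE 0.12, adjusted p = 3.15e-07). All of IX between its ends held 28679 and 28501 HpM in *rad50S*.

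Of the 13 windows of IX called higher, 7 were neighbours. From 190001 to 260000 they rose together, with a sum of 11944 and 11495 HpM in *rad50S hop1-loop2* and 6894 and 6504 HpM in *rad50S*, a ratio of 1.75, and 12 of 26 hotspots were higher and 5 lower. Within it, the window from 230001 to 240000 had 3436 and 3149 HpM in *rad50S hop1-loop2* and 1039 and 910.4 HpM in *rad50S* (log2 change 1.76, SE 0.11, adjusted p = 6.95e-07). The next 3 windows, from 260001 to 290000, fell to 1927 and 1930.1 HpM in *rad50S hop1-loop2*, against 3848 and 3790.3 HpM in *rad50S*, a ratio of 0.505. In 11 of 16 alternative settings fewer than its 3 windows kept their call, and in 7 of them a single one did, among them the fits without *rad50S* replicate 2 and without either *rad50S hop1-loop2* replicate.

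The right-most full window of IX, from 370001 to 380000, had 569.5 and 689 HpM in *rad50S hop1-loop2*, against 119.7 and 134 HpM in *rad50S*, a ratio of 4.95 (log2 change 2.30, SE 0.15, adjusted p = 7.31e-07). It kept its call in all 16 alternatives tried for it. When all 6 libraries shared 1 estimate of the spread, 4 of the 7 rising windows of the middle of IX were called. As a description, the log2 changes of neighbouring windows had a correlation of 0.10 on V (45 neighbour pairs) and 0.21 on IX (31 pairs), against 0.42 over 914 neighbour pairs of the other 14 chromosomes. Neighbours share libraries and some hotspots lie near window borders, and the difference between chromosomes was not tested.

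**Figure D3:**
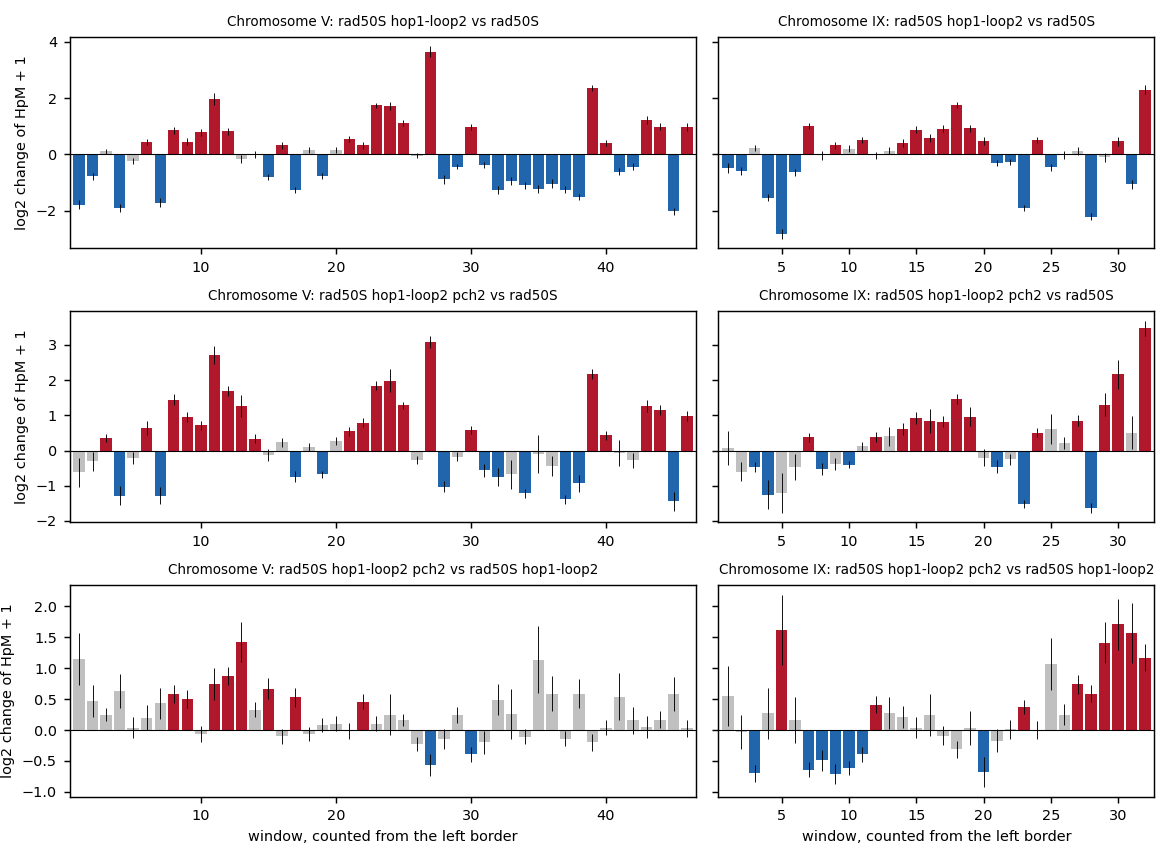
log2 change of HpM + 1 per 10 kb window along chromosomes V (left) and IX (right) without their ends for the 3 comparisons, with limma's SE as a line. Red windows were called higher, blue windows lower and grey windows neither at an adjusted p below 0.05. In the top row 39 of 46 windows of V and 24 of 32 windows of IX are coloured, in runs of up to 8 windows, and in the bottom row 10 and 16.

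Hotspots changed in both directions, in some windows side by side. Of the 248 hotspots, 96 were lower and 82 higher in *rad50S hop1-loop2* against *rad50S* (limma, adjusted p below 0.05 over 3569 hotspots), which is 38.7% and 33.1%, where 43.2% and 34.2% of all hotspots were called. The median log2 change was -0.02 over the 248 and -0.16 over all 3569. On V, 66 were lower, 51 higher and 32 not called, and on IX 30 were lower, 31 higher and 38 not called. Changes over 1 in size on the log2 scale were found in 55.0% of the hotspots of V and 35.4% of those of IX, compared with 51.9% of all hotspots. Of the 36 windows of V with at least 2 called hotspots, 13 (36.1%) held hotspots called in both directions, and 7 of 14 such windows did on IX, where 180 of 740 (24.3%) did over all chromosomes. When the log2 values were centred on the median hotspot of each library, which moved the median change of all hotspots by 0.33, the split of the 248 was 77 lower and 114 higher. With hotspots called on *rad50S* alone, 106 of 239 were lower and 63 higher, and the median of all hotspots moved by -0.29.

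The hotspots called lower and higher held a large part of the signal. By the calls themselves, which these values set, the 66 lower hotspots of V summed to 5602 HpM in *rad50S hop1-loop2* and 15905 HpM in *rad50S*, and the 51 higher ones to 27236 HpM in *rad50S hop1-loop2* and 11271 HpM in *rad50S*. The *rad50S hop1-loop2 pch2* libraries had no part in these calls. The *rad50S* libraries did, so a contrast with their sums is not free of the choice. In *rad50S hop1-loop2 pch2* the 66 hotspots summed to 5589 HpM and the 51 to 25786 HpM. On IX, the 30 lower hotspots summed to 2797 HpM in *rad50S hop1-loop2 pch2*, 2646 HpM in *rad50S hop1-loop2* and 9387 HpM in *rad50S*, and the 31 higher ones to 10506 HpM in *rad50S hop1-loop2 pch2*, 14258 HpM in *rad50S hop1-loop2* and 6823 HpM in *rad50S*.

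**Figure D4:**
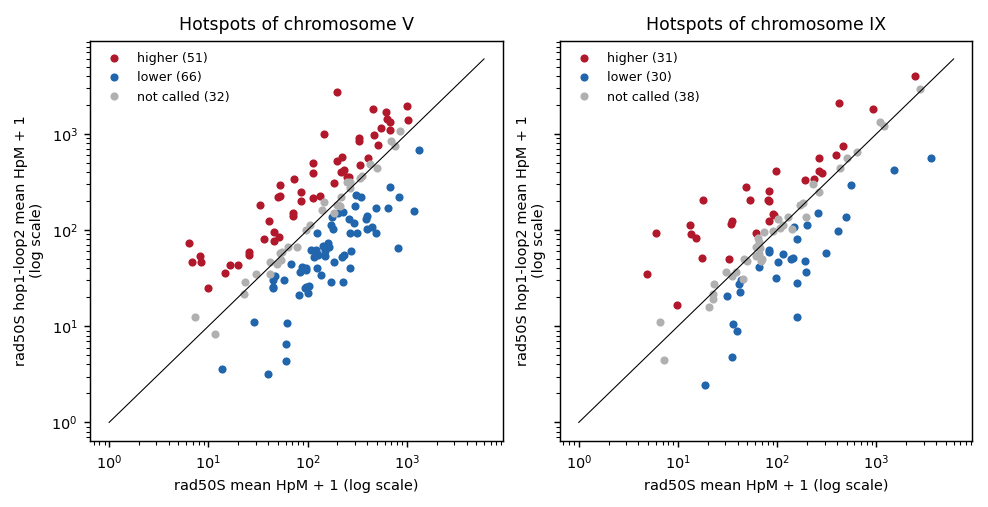
Mean HpM + 1 of each hotspot in *rad50S hop1-loop2* (vertical, log scale) against *rad50S* (horizontal, log scale) on chromosomes V (149 hotspots) and IX (99 hotspots). The line marks equal values. Red hotspots were called higher (51 on V, 31 on IX), blue ones lower (66 and 30) and grey ones neither (32 and 38).

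The strongest hotspots of V changed places. In *rad50S hop1-loop2*, the strongest hotspot, from 322804 to 323265, had 2799 and 2586 HpM, against 251 and 139.5 HpM in *rad50S*, a ratio of 13.8 (log2 change 3.84, SE 0.25, adjusted p = 2.71e-06). This was also the largest increase among hotspots of V with a mean of at least 50 HpM, and the hotspot lies in the window with the largest rise. The hotspots from 493711 to 494736 (2029.7 and 1883 HpM in *rad50S hop1-loop2*, 1087 and 902 HpM in *rad50S*, log2 change 0.98, SE 0.15, adjusted p = 0.000305) and from 283668 to 284259 (1674 and 1955 HpM in *rad50S hop1-loop2*, 441 and 460.3 HpM in *rad50S*, log2 change 2.00, SE 0.14, adjusted p = 4.51e-06) followed. These 3 were also the strongest of V in *rad50S hop1-loop2 pch2*, where they had 1886 and 1342 HpM (from 322804), 2397 and 1721 HpM (from 493711) and 1886 and 1773 HpM (from 283668).

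The 3 strongest hotspots of V in *rad50S* behaved differently from one another. The hotspot from 397131 to 397976 fell to 691 and 655 HpM in *rad50S hop1-loop2*, against 1242 and 1400 HpM in *rad50S* (log2 change -0.97, SE 0.14, adjusted p = 0.00022). That from 338245 to 338566 fell to 181 and 131 HpM in *rad50S hop1-loop2*, against 1334 and 1031 HpM in *rad50S* (log2 change -2.92, SE 0.20, adjusted p = 3.64e-06). The hotspot from 214018 to 214659 had 1446 and 1366 HpM in *rad50S hop1-loop2* and 1158 and 912 HpM in *rad50S* (log2 change 0.45, SE 0.16, adjusted p = 0.0261), and lost its call in 5 of 15 alternatives. Of the 10 strongest hotspots of V by mean HpM, 4 were shared between *rad50S hop1-loop2* and *rad50S*.

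The largest decreases among hotspots of V with a mean of at least 50 HpM were from 428763 to 429065 and from 391433 to 391644, both in the long stretch that fell. At 428763 to 429065 the signal was 66.1 and 63.4 HpM in *rad50S hop1-loop2* and 704 and 927 HpM in *rad50S* (log2 change -3.62, SE 0.17, adjusted p = 9.74e-07). At 391433 to 391644 it was 26.9 and 28.8 HpM in *rad50S hop1-loop2* and 172 and 281 HpM in *rad50S* (log2 change -2.94, SE 0.23, adjusted p = 7.40e-06). The hotspot from 391433 passed the filter of 50 HpM through the *rad50S* libraries, so its low *rad50S hop1-loop2* values follow in part from the choice. The second largest increase, from 441876 to 442180, lay just beyond the right border of that stretch, with 999.7 and 979 HpM in *rad50S hop1-loop2* and 151 and 142 HpM in *rad50S* (log2 change 2.75, SE 0.14, adjusted p = 1.17e-06). The 4 hotspots with the largest changes on V named here were chosen among those without overlap between the groups. Their separation therefore follows from the choice.

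IX was more concentrated than V. In each of the 6 libraries, 6 or 7 of its 99 hotspots held 50% of the hotspot signal, whereas on V it took 16 and 16 hotspots in the *rad50S hop1-loop2 pch2* libraries, 15 and 16 in the *rad50S hop1-loop2* libraries and 24 and 26 in the *rad50S* libraries. The 5 strongest hotspots of V held 22.6% and 21.2% of its hits in *rad50S hop1-loop2* and 15.1% and 13.7% in *rad50S*, without overlap. In *rad50S hop1-loop2 pch2* the 5 strongest of V held 18.75% and 14.84%, which overlapped *rad50S*. On IX, the 5 strongest held 39.8% and 40.5% in *rad50S hop1-loop2* and 42.7% and 37.9% in *rad50S*, with overlap, and 36.2% and 28.8% in *rad50S hop1-loop2 pch2*.

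The strongest hotspot of IX in *rad50S*, from 329986 to 331644, fell to 538 and 589.6 HpM in *rad50S hop1-loop2*, against 3847 and 3269.8 HpM in *rad50S*, a ratio of 0.158 (log2 change -2.65, SE 0.15, adjusted p = 1.64e-06). It is 1659 bp long, the longest of the 248 hotspots. The next in rank, from 319057 to 320184, was not called, with 2608 and 3229.5 HpM in *rad50S hop1-loop2* and 2885 and 2597 HpM in *rad50S* (log2 change 0.08, SE 0.15, adjusted p = 0.635). The strongest hotspot in *rad50S hop1-loop2*, from 252456 to 253230, had 3979 and 4039 HpM there and 2466 and 2446 HpM in *rad50S* (log2 change 0.71, SE 0.13, adjusted p = 0.000971). The third, from 233085 to 234233, rose to 2175 and 1961 HpM in *rad50S hop1-loop2*, against 475 and 362 HpM in *rad50S* (log2 change 2.31, SE 0.17, adjusted p = 4.77e-06).

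The largest increases on IX among hotspots with a mean of at least 50 HpM were at sites that were weak in *rad50S*. These sites passed that filter through the *rad50S hop1-loop2* libraries, so their low *rad50S* values follow in part from the choice. The hotspot from 376531 to 376823 had 179 and 228 HpM in *rad50S hop1-loop2*, against 16.04 and 17.55 HpM in *rad50S*, a ratio of 12.1 (log2 change 3.51, SE 0.18, adjusted p = 1.39e-06). That from 231430 to 231584 had 121 and 100.3 HpM in *rad50S hop1-loop2*, against 16.6 and 7.92 HpM in *rad50S* (log2 change 3.15, SE 0.30, adjusted p = 2.21e-05). The hotspot from 103671 to 103857 fell to 12.7 and 10.3 HpM in *rad50S hop1-loop2*, against 130.3 and 186 HpM in *rad50S* (log2 change -3.65, SE 0.22, adjusted p = 2.11e-06). It lies in the window with the largest fall of IX. This hotspot passed the filter of 50 HpM through the *rad50S* libraries, so its low *rad50S hop1-loop2* values follow in part from the choice.

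**Figure D5:**
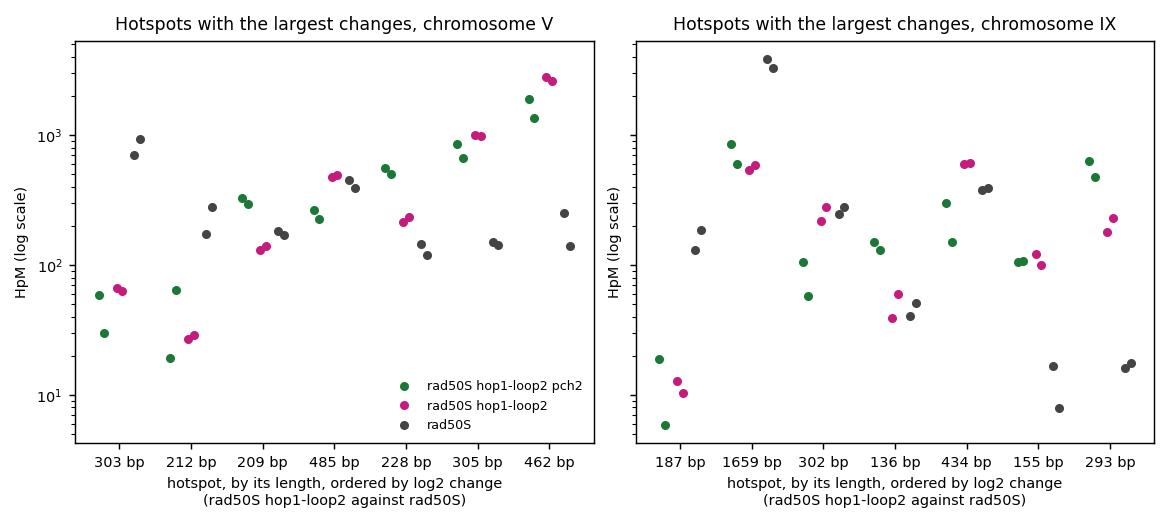
HpM (log scale) of each library at the hotspots of chromosomes V (left) and IX (right) with the largest changes in *rad50S hop1-loop2* against *rad50S* or in *rad50S hop1-loop2 pch2* against *rad50S hop1-loop2*. Hotspots are labelled by their length and ordered by the first of these changes. The 462 bp hotspot of V reaches 2799 HpM in *rad50S hop1-loop2* and no more than 251 HpM in *rad50S*, and the 1659 bp hotspot of IX no more than 589.6 HpM and up to 3847 HpM.

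Some strong hotspots were not called in either direction. Of the hotspots with a mean of at least 200 HpM in the 4 libraries, 11 of 54 on V and 8 of 25 on IX were not called, where 238 of 1168 (20.4%) of such hotspots over all chromosomes were not. The smallest changes on V were at 346784 to 347031 (229 and 206 HpM in *rad50S hop1-loop2*, 219.8 and 216 HpM in *rad50S*) and at 232966 to 233215 (331 and 359.7 HpM in *rad50S hop1-loop2*, 337 and 342 HpM in *rad50S*). On IX they were at 255252 to 255629 (1150.1 and 1237 HpM in *rad50S hop1-loop2*, 1374 and 1023 HpM in *rad50S*) and at 132041 to 132500 (584 and 704 HpM in *rad50S hop1-loop2*, 547 and 732 HpM in *rad50S*). They were chosen for these small differences, and their values are given without a test.

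The place of breaks inside hotspots differed by a few bases, and their widths overlapped. Over 191 hotspots of V and IX with a mean of at least 50 HpM in the 6 libraries, the median position of hits moved by a median of 5.5 bp between *rad50S hop1-loop2* and *rad50S*, against 1 bp between replicates of either genotype. It moved by over 50 bp in 11 hotspots between these genotypes, and in 4 and 6 between their replicates. The central 80% of hits spanned a median of 124 and 127 bp in *rad50S hop1-loop2* and 125 and 127 bp in *rad50S*. Hits on the Watson strand made up 48.6% and 49.1% of the total in *rad50S hop1-loop2* and 50.1% and 50.2% in *rad50S*, while the median share per hotspot was 50.4% and 49.6% in *rad50S hop1-loop2* and 49.6% and 50.3% in *rad50S*, so that these medians overlapped.

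Without Pch2, hotspots again differed from *rad50S* in both directions. This comparison uses the same *rad50S* libraries as the one above. In *rad50S hop1-loop2 pch2* against *rad50S*, 88 of the 248 hotspots were lower and 61 higher, which is 35.5% and 24.6%, where 43.9% and 21.3% of all hotspots were called, and the median log2 change was -0.32 over the 248 and -0.55 over all. Hotspot values of this genotype move with the share of hits outside hotspots: scaled to hits in hotspots, 85 were lower and 84 higher, and after centring, which moved the median of all hotspots by 0.56, 65 were lower and 103 higher. With hotspots called on *rad50S* alone, 97 of 239 were lower and 44 higher, and the median of all hotspots moved by -0.21. Of the 78 windows, 18 were lower and 34 higher (33.4% and 30.7% of all windows), with a median log2 change of 0.23 against -0.08 over all windows. Counted from hits in hotspots, 31 windows were lower and 21 higher, scaled to hits in hotspots 8 and 37, and without replicate 2 of *rad50S hop1-loop2 pch2* 29 and 35.

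In runs of windows, this comparison has its own values, with the *rad50S* libraries shared. From 130001 to 200000 on V, 7 windows were higher, with a sum of 10232 and 9280.5 HpM in *rad50S hop1-loop2 pch2* against 4536 and 4039.8 HpM in *rad50S*. From 260001 to 310000 on V, the sum was 8631 and 7915 HpM in *rad50S hop1-loop2 pch2*, and from 190001 to 250000 on IX, 6 higher windows summed to 5948 and 5347 HpM in *rad50S hop1-loop2 pch2* against 2726 and 2616 HpM in *rad50S*. On IX, 2 of these 6 windows were called when hits in hotspots were counted. The window of V from 320001 to 330000 held 2167 and 1773 HpM in *rad50S hop1-loop2 pch2* (log2 change 3.08, SE 0.18, adjusted p = 3.08e-08 against *rad50S*). No run of at least 3 lower windows was found. From 360001 to 440000 on V, 5 of 8 windows were lower and 3 not called, with a sum of 3186 and 3985 HpM in *rad50S hop1-loop2 pch2* against 6288 and 7378 HpM in *rad50S*.

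The difference that the loss of Pch2 made was then tested directly, in *rad50S hop1-loop2 pch2* against *rad50S hop1-loop2*. Of the 248 hotspots, 17 were lower (1 on V, 16 on IX) and 6 higher (3 on each), which is 6.85% and 2.42%, where 11.9% and 2.8% of all hotspots were called. Of the 78 windows, 9 were lower and 17 higher, where 15.6% and 15.6% of all windows were called. Calls at single hotspots depended on the libraries: with limma, none was left without replicate 1 or without replicate 2 of *rad50S hop1-loop2* (30 and 31 at an unadjusted p below 0.05), 109 were called without replicate 1 of *rad50S hop1-loop2 pch2* (93 lower, 16 higher), 48 without its replicate 2 (19 and 29) and 9 without either *rad50S* replicate (3 and 6). The split also turned with scaling: 14 were lower and 34 higher with edgeR on whole reads, 14 and 41 with DESeq2, 16 and 30 after centring and 14 and 34 when scaled to hits in hotspots. Of the windows, 4 were called without replicate 1 and 10 without replicate 2 of *rad50S hop1-loop2* and 45 without replicate 1 of *rad50S hop1-loop2 pch2*, and 1 was lower and 20 higher when scaled to hits in hotspots.

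On V, a stretch from 160001 to 190000 rose further. Its 3 windows summed to 5175 and 4428 HpM in *rad50S hop1-loop2 pch2*, 2369 and 2779.7 HpM in *rad50S hop1-loop2*, and 1511 and 1280.1 HpM in *rad50S*, so the genotypes did not overlap. In the window from 170001 to 180000, the values were 3777 and 2912 HpM in *rad50S hop1-loop2 pch2*, 1656 and 1999 HpM in *rad50S hop1-loop2*, and 1112 and 954 HpM in *rad50S* (log2 change against *rad50S hop1-loop2* 0.87, SE 0.15, adjusted p = 0.00191, below 0.05 in each of 18 alternatives). It contains the hotspot from 179381 to 179608, the largest increase on V, which had 557 and 499.7 HpM in *rad50S hop1-loop2 pch2*, 214 and 234 HpM in *rad50S hop1-loop2*, and 145 and 119 HpM in *rad50S* (log2 change 1.23, SE 0.22, adjusted p = 0.0119).

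The next window, from 180001 to 190000, was not called in *rad50S hop1-loop2* against *rad50S* (log2 change -0.16, SE 0.13, adjusted p = 0.297). It held 477 and 587 HpM in *rad50S hop1-loop2 pch2* and 198 and 197 HpM in *rad50S hop1-loop2* (log2 change 1.42, SE 0.32, adjusted p = 0.00696). Its hotspot from 181556 to 181764 fell slightly in *rad50S hop1-loop2*, to 131 and 141 HpM against 182 and 171 HpM in *rad50S* (log2 change -0.37, SE 0.15, adjusted p = 0.0436), and rose to 329.5 and 292 HpM in *rad50S hop1-loop2 pch2* (log2 change 1.19, SE 0.21, adjusted p = 0.0119 against *rad50S hop1-loop2*). The calls of these hotspots at 179381 and 181556 were lost in 3 of 17 alternatives each. Without either *rad50S hop1-loop2* replicate, 1 of the 3 windows of the stretch was called. Centromere positions in this assembly were not used here, so a distance from the centromere is not given.

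On IX, a stretch in the right part of the chromosome rose. From 320001 to 380000, 6 windows summed to 5125 and 4829 HpM in *rad50S hop1-loop2 pch2*, 2352 and 2707 HpM in *rad50S hop1-loop2*, and 5574 and 4832 HpM in *rad50S*. The sum of the *pch2* mutant overlapped that of *rad50S*, but from other places: the window from 330001 to 340000 gave 1467 and 1169 HpM of it in *rad50S hop1-loop2 pch2* and 4371 and 3729 HpM in *rad50S*. The window from 370001 to 380000 held 1620.0 and 1232 HpM in *rad50S hop1-loop2 pch2*, 569.5 and 689 HpM in *rad50S hop1-loop2*, and 119.7 and 134 HpM in *rad50S* (log2 change against *rad50S hop1-loop2* 1.17, SE 0.22, adjusted p = 0.00286). Its hotspot from 376531 to 376823, already named for its rise, reached 637 and 471 HpM in *rad50S hop1-loop2 pch2* (log2 change 1.44, SE 0.25, adjusted p = 0.0117 against *rad50S hop1-loop2*), 33.0 times its mean in *rad50S*.

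The window from 350001 to 360000 held 402 and 558 HpM in *rad50S hop1-loop2 pch2*, 127 and 163 HpM in *rad50S hop1-loop2*, and 93.3 and 117 HpM in *rad50S* (log2 change against *rad50S hop1-loop2* 1.71, SE 0.41, adjusted p = 0.00924). From hits in hotspots, it held 150.2 and 130.5 HpM in *rad50S hop1-loop2 pch2* and 38.9 and 59.6 HpM in *rad50S hop1-loop2* (log2 change 1.52, SE 0.25, adjusted p = 0.011), all of it in the hotspot from 352893 to 353028. That hotspot was also named for its increase and passed the filter of 50 HpM through the *pch2* libraries. Its values are therefore no separate support for the rise of the window. Of the 6 windows of the stretch, 3 kept their call from hits in hotspots, 1 without replicate 1 and 3 without replicate 2 of *rad50S hop1-loop2*.

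In a stretch in the left part of IX, the loss of Pch2 went with lower signal. From 120001 to 170000, 5 windows summed to 5091 and 4783 HpM in *rad50S hop1-loop2 pch2*, 7139 and 7225 HpM in *rad50S hop1-loop2*, and 4923 and 5624 HpM in *rad50S*. Both *rad50S hop1-loop2* libraries lay above the other genotypes, which overlapped. Of 20 hotspots in the stretch, 9 were lower and none higher in the *pch2* libraries against *rad50S hop1-loop2*. Of all hotspots, 11.9% were called lower and 2.8% higher, and the hotspots of the stretch share most hits with its windows. None of the 5 windows was called when values were scaled to hits in hotspots, and 2 were without either *rad50S hop1-loop2* replicate, although the log2 change stayed negative in all 5.

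At single sites of IX, the hotspot from 83616 to 83917 had 106 and 57.5 HpM in *rad50S hop1-loop2 pch2*, 217 and 279 HpM in *rad50S hop1-loop2*, and 248 and 278 HpM in *rad50S* (log2 change against *rad50S hop1-loop2* -1.64, SE 0.30, adjusted p = 0.013). That from 140329 to 140762 had 298 and 150.0 HpM in *rad50S hop1-loop2 pch2*, 598 and 607 HpM in *rad50S hop1-loop2*, and 379.9 and 394 HpM in *rad50S* (log2 change -1.51, SE 0.30, adjusted p = 0.0154). The windows that contain them, from 80001 to 90000 and from 140001 to 150000, were lower by log2 changes of -0.70 (SE 0.14, adjusted p = 0.00334) and -0.71 (SE 0.16, adjusted p = 0.00717). The first held 523 and 517 HpM in *rad50S hop1-loop2 pch2*, 856 and 838.5 HpM in *rad50S hop1-loop2*, and 712 and 737 HpM in *rad50S*, and the other held 463 and 577 HpM in *rad50S hop1-loop2 pch2*, 839 and 858 HpM in *rad50S hop1-loop2*, and 619 and 736 HpM in *rad50S*. In these windows the fall from hits in hotspots was larger, at -1.15 and -1.29, in a setting that moved the median of all windows by -0.46. Their calls were lost in 2 and 3 of 18 alternatives. The strong hotspot from 255252 to 255629, which was not called in *rad50S hop1-loop2* against *rad50S*, had 567 and 389.6 HpM in *rad50S hop1-loop2 pch2*, against 1150.1 and 1237 HpM in *rad50S hop1-loop2* (log2 change -1.34, SE 0.25, adjusted p = 0.013).

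On V, falls in the same comparison were few. The hotspot from 369178 to 369662 had 264 and 226 HpM in *rad50S hop1-loop2 pch2*, 475 and 491 HpM in *rad50S hop1-loop2*, and 455 and 394 HpM in *rad50S* (log2 change against *rad50S hop1-loop2* -0.98, SE 0.21, adjusted p = 0.0192), and its call was lost in 6 of 17 alternatives. The window from 320001 to 330000, the site of the strong gain, was lower than in *rad50S hop1-loop2* (log2 change -0.57, SE 0.18, adjusted p = 0.0315), and that from 350001 to 360000 had 1735 and 1594 HpM in *rad50S hop1-loop2 pch2* and 2329 and 2050 HpM in *rad50S hop1-loop2* (log2 change -0.39, SE 0.12, adjusted p = 0.0234). Neither kept its call from hits in hotspots. On IX, the window from 100001 to 110000 was called higher with 75.3 and 258 HpM in *rad50S hop1-loop2 pch2* against 45.2 and 44.5 HpM in *rad50S hop1-loop2* (adjusted p = 0.0499), but from hits in hotspots it held 23.2 and 7.79 HpM in *rad50S hop1-loop2 pch2* and 18.2 and 15.4 HpM in *rad50S hop1-loop2* (log2 change -0.28, adjusted p = 0.656).

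Hotspots called in the *rad50S hop1-loop2 pch2* libraries alone by the same rule numbered 143 on V and 101 on IX, against 138 and 96 in *rad50S hop1-loop2* and 144 and 95 in *rad50S*. Of those of the *pch2* mutant, 26 (13 on each chromosome) touched none of the 248 hotspots, as did 14 (8 on V, 6 on IX) of *rad50S hop1-loop2* and 13 (7 and 6) of *rad50S*. Over all 16 chromosomes, 9.74% of the hotspots of the *pch2* mutant touched no hotspot of the rule, 5.71% of those of *rad50S hop1-loop2* and 6.54% of those of *rad50S*. The 26 were weak, with medians of 26.0 and 28.3 HpM in the *rad50S hop1-loop2 pch2* libraries, 14.7 and 15.7 HpM in *rad50S hop1-loop2* and 4.66 and 4.75 HpM in *rad50S*. They were chosen for their signal in the *pch2* libraries, so their higher values there are no test. The 248 hotspots themselves were called without the *pch2* libraries.

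The amount of Hop1 on these chromosomes was available from SNP-ChIP, in which SK1 cells are mixed before immunoprecipitation with cells of strain SK288c, whose reads align to the S288C genome, so that SK1 reads can be scaled by the S288C reads, in ChIP relative to input, to compare absolute amounts. It was done without *rad50S* at 3 h, with 1 ChIP and 1 input library for each genotype used here. A second set of these libraries in the labels was not analysed here. Calculated from the reads of each chromosome, Hop1 in *hop1-loop2* was at 59.7% of wild type on V (95% interval 57.1 to 62.4%) and at 55.1% on IX (52.1 to 58.3%). The *hop1-loop2* input was the shallowest, with 11915 SK1 and 2830 S288C reads on V and 7870 and 1762 on IX. The intervals cover counting error only, and replicates were not compared. The value was 59.6% over all 16 chromosomes and 40.2 to 70.9% on the other 14, where V was 9th and IX 12th of 16 from the highest. The assays differ in strain and time, so these values stand beside the DSB shares without a test.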

How the data were processed

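6 CC-seq libraries (3 genotypes, 2 each) and 4 SNP-ChIP libraries were used. The study describes its CC-seq replicates as biologically independent and lists 2 libraries each of *rad50S hop1-loop2* and *rad50S*. Those of *rad50S hop1-loop2 pch2* are not in that list, and their labels give only a replicate number. The authors aligned CC-seq reads to the SK1 genome with Bowtie2 through terminalMapper and deposited HpM (hits per 1000000 hits, an RPM unit) for each position and strand. All deposited RPM values were whole multiples of 1 read (100% within 1% of a read), which gave whole reads. The deposited SNP-ChIP values are counts, made by the authors from reads that match the joined SK1 and S288C genomes perfectly, per chromosome. How duplicates were treated in CC-seq is not given in the sources used here, and copied reads would make counting errors look too small.

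HpM of both strands was summed per hotspot and per 10 kb window and tested as log2(HpM + 1) with limma 3.58.1 (trend, Benjamini-Hochberg adjustment over all features): 4 libraries for *rad50S hop1-loop2* against *rad50S* and all 6 for comparisons with the *pch2* mutant. On the log2(HpM + 1) scale the change of weak features is understated. Shares were compared by an exact permutation test over libraries (scipy 1.17.1). Named for each chromosome were the 3 strongest hotspots of each genotype, the 2 largest decreases and increases among called hotspots (mean of at least 50 HpM, no overlap) and called windows for *rad50S hop1-loop2* against *rad50S* and for the *pch2* mutant against *rad50S hop1-loop2*, the 2 smallest changes among hotspots of at least 200 HpM, and runs of at least 3 called windows. Others named with values (windows from 310001 and 450001 and hotspots inside named windows) were chosen after their values were seen. The chromosomes, rules and tests were chosen with earlier results of these data known. Alternatives were other pseudocounts, filters, hotspot thresholds and scalings, edgeR 4.0.16 and DESeq2 1.42.0 on whole reads, each strand position once, thinning, a replicate block, leaving out each library, other window sizes and other chromosome ends. The fits were tested on simulated data. The reference genome at hand is S288C, so no genes or sequences are given at hotspots.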

Additional observations from a re-analysis of the deposited data

How the results depend on the processing

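The 6 share ratios cannot pass a threshold in this design. Their direction was kept, except on IX: *rad50S hop1-loop2 pch2* against *rad50S* was 0.969 with 80 kb left out at each end and 1 to 1.05 when a library was left out (1 without replicate 1 of the *pch2* mutant), and *rad50S hop1-loop2 pch2* against *rad50S hop1-loop2* was 1.006 for the whole chromosome and 1.001 as a share of all interiors. For *rad50S hop1-loop2* against *rad50S* and for *rad50S hop1-loop2 pch2* against *rad50S*, hotspot counts stayed within 1.5 times of 178 and 149, and window counts changed with window size by construction (117 and 33 against 63, 86 and 25 against 52, for 5 kb and 20 kb). For *rad50S hop1-loop2 pch2* against *rad50S hop1-loop2*, the 23 called hotspots became 48 with edgeR, 55 with DESeq2, 46 (16 lower, 30 higher) after centring, 48 (14 and 34) scaled to hits in hotspots, 9 with 4 libraries in the fit, 0 with each strand position counted once (51 at an unadjusted p below 0.05) and 0 to 109 when a library was left out. The 26 windows became 10 with each position counted once, 12 at 20 kb, 14 from hits in hotspots and 4 to 45 when a library was left out.

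Scaling moved the split of calls. For *rad50S hop1-loop2 pch2* against *rad50S*, edgeR gave 73 lower and 99 higher and DESeq2 69 and 97, and windows scaled to hits in hotspots gave 8 and 37. For *rad50S hop1-loop2* against *rad50S*, windows gave 24 lower and 39 higher after centring (a shift of 0.21 in the median of all windows) and 24 and 38 with DESeq2. For the *pch2* mutant against *rad50S hop1-loop2*, 1 window was lower and 20 higher when scaled to hits in hotspots. Of 691 values of 43 named hotspots and windows, 3 reversed: the window of V from 320001 (*pch2* mutant against *rad50S hop1-loop2*) was 0.19 with each position counted once, that of IX from 100001 was -0.28 from hits in hotspots, and the hotspot of IX from 319057 ranged from -0.07 to 0.24 when a library was left out, below 0 without *rad50S hop1-loop2* replicate 2. Another 59 lost a call, and 13 values of hotspots chosen for small changes moved by at least limma's SE in the main fit. After centring, the hotspots of V from 232966 (0.36, adjusted p = 0.0459, limma) and of IX from 319057 (0.42, adjusted p = 0.0405) passed the threshold. The same replicate number does not mark a shared culture, and deviations of same-numbered libraries had correlations of 0.315, 0.0855 and 0.107 over hotspots and 0.166, 0.464 and -0.135 over windows. With a replicate block, 191, 154 and 33 hotspots and 65, 54 and 30 windows were called in the 3 comparisons. With 2 libraries per genotype and 1026669 hits in the shallowest, weak hotspots of the *pch2* mutant are the least certain.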
